A study of Mus musculus with 12 samples.

Results

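The MYC-MAX-MXD network was followed through 10 genes in U2OS, a human osteosarcoma cell line: MYC, MYCN, MYCL, MAX, MXD1, MXD4, MXI1, MNT, MLX and MLXIP. The genes were found by their full names among the 58735 genes of the deposited expression table, and all 10 were listed there once. Of these, 9 had a mean of at least 0.5 FPKM (fragments per kilobase of gene, scaled to library size) over the 12 libraries and were tested among 17538 genes, and MYCN did not reach that level.

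The network is a set of helix-loop-helix proteins that compete for a shared partner. MYC, MYCN and MYCL bind DNA and activate genes of growth and metabolism when paired with MAX, whereas the MXD proteins, MXI1 and MNT occupy the same E-box sites with MAX and recruit deacetylase complexes that silence them. MLX carries a parallel branch, in which it pairs with MLXIP (MondoA), a sensor of glucose-derived sugars, and can also pair with some of the repressors.

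The 12 libraries formed 4 groups of 3: blank U2OS cells, U2OS cells given the siRNA siSRSF1-2, U2OS cells given the siRNA siSRSF1-3, and U2OS cells labelled OE-LINC01134, which overexpressed the long noncoding RNA LINC01134. The siRNAs are directed at SRSF1, a splicing factor of the SR family, and the question of the study was which genes change when SRSF1 is reduced. The labels give no library of a control siRNA or an empty vector, so the blank cells were the only comparison group and the effect of delivery cannot be told apart from that of the target. The labels name the organism as mouse with the builds GRCm38 and mm10, while the table lists human Ensembl genes, so gene positions are given as deposited and their human build is not given in the sources used here. The labels and the study's methods name different library kits. The supplementary methods state fewer biological replicates per condition than the 3 libraries per group, while a figure legend gives 3 experimental repeats. Neither says whether these were separate cultures, so p-values measure only the spread between these libraries, which may be technical.

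Between 26237763 and 32954539 reads fell on genes in a library. SRSF1 was at 35.9, 19.8 and 20.5 FPKM in the blank libraries, at 7.09, 7.46 and 7.41 FPKM with siSRSF1-2 and at 3.33, 6.81 and 7.90 FPKM with siSRSF1-3. It was below every blank library in all 6 siRNA libraries, by a log2 difference of -1.72 ± 0.23 (SE, n = 3 per group, limma adjusted p = 0.0050) for siSRSF1-2 and of -2.09 ± 0.38 (limma adjusted p = 0.052) for siSRSF1-3, where it missed the adjusted threshold. Without blank replicate 1 these differences were -1.45 (limma adjusted p = 3.4e-05) and -1.82 (limma adjusted p = 0.12), and without siSRSF1-3 replicate 3 the latter was -2.33 (limma adjusted p = 0.014). LINC01134 was at 0.602 ± 0.164 FPKM (SD, n = 3) in the blank cells and at 1016 ± 228 FPKM in the OE-LINC01134 cells. Replicates did not all resemble each other. Blank replicates 2 and 3, OE-LINC01134 replicates 1 and 3, and the 3 siSRSF1-2 libraries differed by a chi-square of 2.13 to 3.20 per gene, a little above counting noise. Blank replicate 1 differed from the other blanks by 63.2 and 66.4, OE-LINC01134 replicate 2 from its group by 66.5 and 68.6, and siSRSF1-3 replicate 3 from its group by 316 and 120. Some of these libraries lay nearer to another group than to their own. Blank replicate 1 differed from OE-LINC01134 replicate 2 by 44.9 per gene, and siSRSF1-3 replicate 3 differed from the siSRSF1-2 libraries by 29.99 to 39.8. LINC01134 was at 0.791 FPKM in blank replicate 1 and at 1279 FPKM in OE-LINC01134 replicate 2, the highest of each group. Whether labels were exchanged was not tested beyond these levels of LINC01134 and SRSF1. In siSRSF1-3 replicate 1 the scaling behind the deposited FPKM was 0.712 of the library's own reads, against 0.888 in replicate 2 and 0.990 to 1.09 in the other libraries. Values without blank replicate 1, OE-LINC01134 replicate 2 or siSRSF1-3 replicate 3 are given for members whose adjusted p turned on them. They are also given for some listed genes. Without blank replicate 1, the libraries within blank and within siSRSF1-2 are all near-identical, a little above counting noise. The small SE and adjusted p of that fit measure this narrow spread, which may be technical.

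The mesenchymal and bone tumour markers VIM (68.7 to 248 FPKM), SPARC (35.96 to 111 FPKM), COL5A1 (4.15 to 12.5 FPKM) and RUNX2 (1.55 to 3.92 FPKM) were detected in every library, while COL1A2 did not exceed 0.0131 FPKM and TWIST1 did not exceed 0.190 FPKM. TERT, which this telomerase-negative line is known to lack, was at most 0.115 FPKM. Of 4 blood cell markers, PTPRC, CD3E and LYZ together did not exceed 0.235 FPKM in any library. The globin gene HBB was at 5.93 to 7.72 FPKM in blank cells, 12.2 to 15.8 FPKM with siSRSF1-2 and 10.01 to 50.9 FPKM with siSRSF1-3. The part of HBB in the results below was not tested. The 4 epithelial markers summed to 1.74 to 2.45 FPKM in blank cells, 1.70 to 1.87 FPKM with siSRSF1-2, 2.12 to 2.35 FPKM with LINC01134 overexpression and 3.03 to 3.24 FPKM with siSRSF1-3, of which EPCAM gave 0.918 to 2.43 FPKM, and their part was not tested either. The endothelial markers PECAM1 and CDH5 summed to 0.334 to 0.558 FPKM in blank cells, 0.190 to 0.289 FPKM with siSRSF1-2, 0.177 to 0.209 FPKM with siSRSF1-3 and 0.230 to 0.488 FPKM with LINC01134 overexpression, and their part was not tested.

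Levels per gene length set MYC far above its partners. MYC had the highest FPKM of the 10 genes in each group, and its lowest library, at 73.6 FPKM, lay above the highest MAX library, at 24.4 FPKM. MAX was the next in each group. In blank cells MLX (11.3 ± 0.9 FPKM, SD, n = 3) and MXI1 (11.3 ± 1.9 FPKM) followed with overlapping ranges, then MLXIP (6.04 ± 1.15 FPKM), MXD1 (6.02 ± 3.02 FPKM) and MXD4 (5.45 ± 0.56 FPKM), whose neighbours in this order also overlapped, and then MNT (3.41 ± 0.70 FPKM). MYCL (1.02 ± 0.52 FPKM) and MYCN (0.121 ± 0.036 FPKM) were lowest. MYC made up 58.5% ± 0.4 (SD, n = 3) of the summed FPKM of the 10 members in blank cells, 59.7% ± 0.7 with siSRSF1-2, 64.8% ± 3.8 with siSRSF1-3 and 63.0% ± 6.1 with LINC01134 overexpression.

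**Figure D1:**
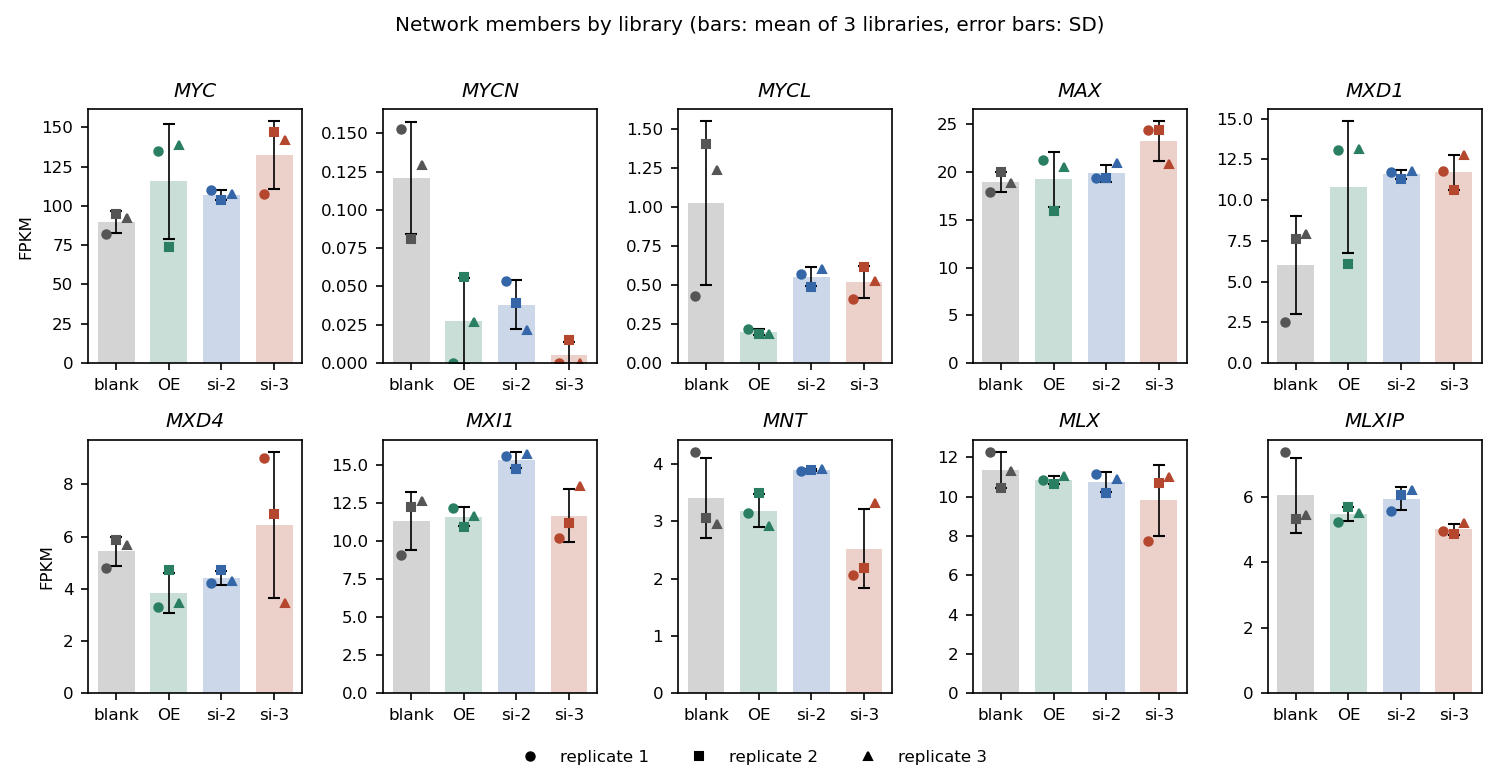
FPKM of the 10 members (vertical axes, each from 0 with its own range) in the blank, OE-LINC01134 (OE), siSRSF1-2 (si-2) and siSRSF1-3 (si-3) cells; symbols are the 3 libraries of a group by replicate number, bars the mean and error bars the SD. MYC lies at or above 73.6 FPKM in every library and MYCN at or below 0.153 FPKM, and MXD1 in blank replicate 1 (2.54 FPKM) stands apart from the other 2 blanks.

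In no comparison did a member pass the full threshold, a Benjamini-Hochberg adjusted p under 0.05 over all genes tested with an absolute log2 difference over 1, in limma fits of log2(FPKM + 0.1). With siSRSF1-2 against blank, 0 of 9 members passed, beside 4.95% of all genes tested, and 1 of 9, MYC, passed the adjusted p alone, beside 26.8% of all genes. At an unadjusted p under 0.05 there were 4 of 9 members, beside 40.3% of all genes, and the libraries of the groups did not overlap for 4 of 9, beside 49.5%. With siSRSF1-3 against blank, 0 of 9 passed the full threshold (1.26% of all genes) and 0 the adjusted p alone (1.28%), 2 had an unadjusted p under 0.05 (28.8%), and 4 did not overlap (37.2%). With LINC01134 overexpression against blank, 0 of 9 passed the full threshold (0.85% of all genes) and 0 the adjusted p alone (1.18%), 2 had an unadjusted p under 0.05 (26.3%), and 2 did not overlap (30.6%). Between siSRSF1-3 and siSRSF1-2, 0 of 9 passed either adjusted rule (0.0855% of all genes for both), 2 had an unadjusted p under 0.05 (42.1%), and 3 did not overlap (54.6%). Without blank replicate 1, siSRSF1-2 against blank holds only near-identical libraries within each group. In that fit 6 of 9 passed the adjusted p alone, beside 9147 of all 17538 genes. Between the siRNAs it was 5 of 9 without siSRSF1-3 replicate 3, beside 10731 of all genes. With LINC01134 overexpression it was 2 without OE-LINC01134 replicate 2 (4467 of all genes) and 1 without blank replicate 1 (2441). By another method, limma's voom on reads recovered from the FPKM, 0 members passed the full threshold in each comparison.

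MYC, the activator that drives ribosome production, glycolysis and cell cycle entry, lies on chromosome 8 from 127735434 to 127741434 on the plus strand. It was at 81.9, 94.9 and 92.3 FPKM in the blank libraries and at 110, 104 and 107 FPKM with siSRSF1-2. All 3 siSRSF1-2 libraries lay above all 3 blanks. The log2 difference was 0.26 ± 0.07 (SE, n = 3 per group, limma adjusted p = 0.045), a 1.20-fold higher level, which passed the adjusted p but not the minimum fold. The adjusted p stayed under 0.05 in 6 of 18 alternatives, over a range of 0.0052 to 1. It exceeded 0.05 without either of blank replicates 2 and 3 and without any siSRSF1-2 library, while without blank replicate 1 the difference was 0.19 with the lowest limma adjusted p of that range.

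With siSRSF1-3, MYC was at 108, 147 and 142 FPKM, again above every blank library. The log2 difference was 0.55 ± 0.22 (SE, n = 3 per group, limma adjusted p = 0.16), and it ranged from 0.10 with equal FPKM sums to 0.69 without siSRSF1-3 replicate 1 over 18 alternatives (limma adjusted p 0.092 to 0.86). That the groups did not overlap depended on the scaling. With each library scaled to its own reads, siSRSF1-3 replicate 1 was at 76.6, below the 81.1 to 103 of the blanks, and the other siSRSF1-3 libraries were at 130.4 and 151. MYC in the siSRSF1-3 libraries was higher than with siSRSF1-2 by 0.29 ± 0.17 on the log2 scale (limma adjusted p = 0.23), with overlapping ranges, and this sign turned when libraries were given equal FPKM sums (-0.29) or scaled to their own reads (-0.015). Those scalings moved the median of all genes in that comparison to -0.57 and -0.31, from -0.02.

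LINC01134 overexpression split MYC by library. Replicates 1 and 3 were at 135 and 139 FPKM, above every blank library, and replicate 2 was at 73.6 FPKM, below every blank library. The log2 difference from blank was 0.31 ± 0.25 (SE, n = 3 per group, limma adjusted p = 0.45), and without OE-LINC01134 replicate 2 it was 0.61 ± 0.09 (limma adjusted p = 0.013, the lowest of 18 alternatives, which reached up to 1).

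MYCL, the family member known from small cell lung cancer, lies on chromosome 1 from 39895426 to 39902256 on the minus strand. It was at 0.428, 1.40 and 1.24 FPKM in the blank libraries and at 0.218, 0.188 and 0.187 FPKM in the OE-LINC01134 libraries, with 26 to 32 reads in each of the latter. All 3 overexpressing libraries were below the lowest blank. The log2 difference was -1.78 ± 0.46 (SE, n = 3 per group, limma adjusted p = 0.089) and did not pass the threshold. It was the largest among the members in any of the comparisons with all libraries and a pseudocount of 0.1. MYCL had a mean of 0.573 FPKM over the 12 libraries, near the filter of 0.5 FPKM, and was highest in the blanks, at 1.02 FPKM. That filter therefore favours a level lower than blank, and MYCL was not tested with a filter of 1 FPKM. Without blank replicate 1, whose level was closest to the overexpressing libraries, the difference was -2.25 ± 0.26 and passed (limma adjusted p = 0.013), as it did in the fit over all 4 groups (-1.78, limma adjusted p = 0.027). These were 2 of 17 alternatives, whose adjusted p ranged from 0.013 to 1. Over the same alternatives the difference ranged from -2.25 to -0.72, so its size at this low level depended on the method.

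With siSRSF1-2, MYCL was at 0.571, 0.488 and 0.601 FPKM, between blank replicate 1 and the other blanks. The log2 difference of -0.65 ± 0.42 (SE, n = 3 per group, limma adjusted p = 0.30) became -1.12 ± 0.17 without blank replicate 1 and then passed (limma adjusted p = 0.0033, the lowest of 17 alternatives, which reached up to 1). As above, the filter of 0.5 FPKM favours a level lower than blank, so this pass is given as a description. With siSRSF1-3, MYCL was at 0.413, 0.614 and 0.526 FPKM, a log2 difference from blank of -0.74 ± 0.48 (limma adjusted p = 0.32), which was -1.21 ± 0.30 without blank replicate 1 (limma adjusted p = 0.14). MYCN, the neuroblastoma oncogene of the family, lies on chromosome 2 from 15940564 to 15947007 on the plus strand and was close to the floor of 3 reads. It had 6 to 11 reads per blank library, 0 to 4 with LINC01134 overexpression, 2 to 4 with siSRSF1-2 and 0 to 1 with siSRSF1-3. Levels in blank cells reached 0.153 FPKM and were above those of every other library, and no fold is given because the other groups lie at or near the floor. MYCN overlaps an antisense gene, and whether the counting used strand is not stated.

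MAX, the obligate partner of both arms, lies on chromosome 14 from 65006174 to 65102695 on the minus strand. It was at 17.9, 20.01 and 18.8 FPKM in blank cells, 19.4, 19.3 and 20.9 FPKM with siSRSF1-2, and 24.4, 24.4 and 20.8 FPKM with siSRSF1-3. Only the siSRSF1-3 libraries lay wholly above the blanks in deposited FPKM. With each library scaled to its own reads, siSRSF1-3 replicate 1 was at 17.4, below the 17.8 to 21.7 of the blanks. The log2 difference of siSRSF1-3 from blank was 0.29 ± 0.16 (SE, n = 3 per group, limma adjusted p = 0.27). It became -0.15 with equal FPKM sums, a scaling that moved the median of all genes to -0.43 in this comparison. With siSRSF1-2 the difference was 0.07 ± 0.07 (limma adjusted p = 0.48), and with LINC01134 overexpression, at 21.2, 16.0 and 20.5 FPKM, it was 0.01 ± 0.14 (limma adjusted p = 0.96). The difference of siSRSF1-3 from siSRSF1-2 was 0.22 ± 0.12 (limma adjusted p = 0.19), and 0.30 ± 0.07 without siSRSF1-3 replicate 3 (limma adjusted p = 0.018). Over the 12 libraries the highest MAX value was 1.53 times the lowest, against 2.00 times for MYC and 5.18 times for MXD1. A MAX pseudogene and an MLX pseudogene are also listed in the table, and reads of these genes may be shared with them.

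MXD1 (MAD1), a repressor that appears when cells differentiate, lies on chromosome 2 from 69897688 to 69942945 on the plus strand and varied most among the tested repressors. It was at 2.54, 7.62 and 7.89 FPKM in blank cells, 11.7, 11.3 and 11.8 FPKM with siSRSF1-2, and 11.8, 10.6 and 12.7 FPKM with siSRSF1-3. All 6 siRNA libraries lay above the highest blank in deposited FPKM. With each library scaled to its own reads, siSRSF1-3 replicate 1 was at 8.39, within the 2.51 to 8.47 of the blanks. The log2 differences were 1.10 ± 0.43 (SE, n = 3 per group, limma adjusted p = 0.11) for siSRSF1-2 and 1.11 ± 0.43 (limma adjusted p = 0.15) for siSRSF1-3. Without blank replicate 1 the siSRSF1-2 difference was 0.57 ± 0.04 with limma adjusted p = 0.00022, the lowest of 18 alternatives that reached up to 1, smaller in size and short of the minimum fold. The siSRSF1-3 difference was then 0.58 ± 0.16 (limma adjusted p = 0.16, in a range of 0.059 to 0.40 over 18 alternatives). In the overexpressing cells MXD1 was at 13.1, 6.10 and 13.1 FPKM, so that replicate 2 lay among the blanks and the others above them, and the difference was 0.91 ± 0.50 (limma adjusted p = 0.29).

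MXI1, the repressor also called MXD2, lies on chromosome 10 from 110207605 to 110287365 on the plus strand and was the most abundant repressor of blank cells. It was at 9.12, 12.2 and 12.7 FPKM in the blank libraries, 15.6, 14.8 and 15.7 FPKM with siSRSF1-2, and 10.2, 11.2 and 13.6 FPKM with siSRSF1-3. The siSRSF1-2 libraries lay above all blanks and above all siSRSF1-3 libraries. The log2 difference of siSRSF1-2 from blank was 0.45 ± 0.13 (SE, n = 3 per group, limma adjusted p = 0.053), and without blank replicate 1 it was 0.30 ± 0.04 (limma adjusted p = 0.0022). That of siSRSF1-3 from siSRSF1-2 was -0.40 ± 0.14 (limma adjusted p = 0.093), and without siSRSF1-3 replicate 3 it was -0.52 ± 0.08 (limma adjusted p = 0.0045). In the overexpressing cells, at 12.2, 10.96 and 11.7 FPKM, the difference from blank was 0.05 ± 0.15 (limma adjusted p = 0.86).

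MXD4 (MAD4), on chromosome 4 from 2247432 to 2262294 on the minus strand, is a repressor of the same family. It was at 4.81, 5.86 and 5.67 FPKM in blank cells, 3.32, 4.71 and 3.47 FPKM with LINC01134 overexpression, and 4.22, 4.74 and 4.32 FPKM with siSRSF1-2. Both of these groups lay below the lowest blank. The log2 differences were -0.51 ± 0.17 (SE, n = 3 per group, limma adjusted p = 0.14) for LINC01134 overexpression and -0.29 ± 0.10 (limma adjusted p = 0.086) for siSRSF1-2. Without OE-LINC01134 replicate 2 the former was -0.66 ± 0.12 (limma adjusted p = 0.021, the lowest of 18 alternatives, which reached up to 1). Without blank replicate 1 the siSRSF1-2 difference was -0.37 ± 0.07 (limma adjusted p = 0.0054). With siSRSF1-3 MXD4 was at 9.01, 6.89 and 3.47 FPKM, so that replicates 1 and 2 exceeded every blank and replicate 3 was below every blank. The difference of 0.14 ± 0.35 (limma adjusted p = 0.79) turned to -0.15 without siSRSF1-3 replicate 1 and to -0.30 and -0.11 with equal FPKM sums and with scaling to own reads. Between the siRNAs the difference of 0.43 ± 0.34 (limma adjusted p = 0.35) became 0.82 ± 0.14 without siSRSF1-3 replicate 3 (limma adjusted p = 0.0068).

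MNT, a repressor present in both resting and dividing cells, lies on chromosome 17 from 2384060 to 2401118 on the minus strand. It was at 4.22, 3.07 and 2.96 FPKM in blank cells, 3.89, 3.90 and 3.91 FPKM with siSRSF1-2, and 2.06, 2.19 and 3.32 FPKM with siSRSF1-3. The siRNA groups did not overlap each other, and both overlapped the blanks. The log2 difference of siSRSF1-3 from siSRSF1-2 was -0.64 ± 0.20 (SE, n = 3 per group, limma adjusted p = 0.087), and without siSRSF1-3 replicate 3 it was -0.84 ± 0.09 (limma adjusted p = 0.0020, in a range of 0.0020 to 0.49 over 18 alternatives), still short of the minimum fold. Against blank the differences were 0.20 ± 0.15 (limma adjusted p = 0.34) for siSRSF1-2 and -0.43 ± 0.26 (limma adjusted p = 0.28) for siSRSF1-3. Without blank replicate 1 the siSRSF1-2 difference was 0.36 ± 0.05 (limma adjusted p = 0.0029). In the overexpressing cells MNT was at 3.15, 3.49 and 2.93 FPKM, a difference of -0.08 ± 0.18 (limma adjusted p = 0.80) that turned to 0.08 without blank replicate 1 and to 0.0056 with equal FPKM sums.

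MLX, on chromosome 17 from 42567068 to 42573239 on the plus strand, was among the steadiest members. It was at 12.3, 10.5 and 11.3 FPKM in blank cells, 10.9, 10.7 and 11.1 FPKM with LINC01134 overexpression, 11.1, 10.2 and 10.9 FPKM with siSRSF1-2, and 7.75, 10.7 and 10.99 FPKM with siSRSF1-3. The 4 groups overlapped, and siSRSF1-3 replicate 1 alone was below 10 FPKM. The log2 differences from blank were -0.08 ± 0.08 (SE, n = 3 per group, limma adjusted p = 0.53) for siSRSF1-2, -0.22 ± 0.20 (limma adjusted p = 0.46) for siSRSF1-3 and -0.06 ± 0.11 (limma adjusted p = 0.76) for LINC01134 overexpression. With equal FPKM sums, the siSRSF1-2 and overexpression differences turned to 0.05 and 0.03.

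MLXIP, the glucose-responsive partner of MLX, lies on chromosome 12 from 122078722 to 122147347 on the plus strand. It was at 7.36, 5.30 and 5.44 FPKM in blank cells, 5.56, 6.06 and 6.20 FPKM with siSRSF1-2, and 4.94, 4.87 and 5.19 FPKM with siSRSF1-3. The siSRSF1-3 libraries lay below every blank and every siSRSF1-2 library. Their log2 difference from blank was -0.25 ± 0.19 (SE, n = 3 per group, limma adjusted p = 0.39), and from siSRSF1-2 it was -0.24 ± 0.11 (limma adjusted p = 0.14). Without siSRSF1-3 replicate 3 the latter was -0.27 ± 0.08 (limma adjusted p = 0.041). The overexpressing cells, at 5.23, 5.68 and 5.49 FPKM, differed from blank by -0.13 ± 0.16 (limma adjusted p = 0.64), which turned to 0.024 without blank replicate 1.

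**Figure D2:**
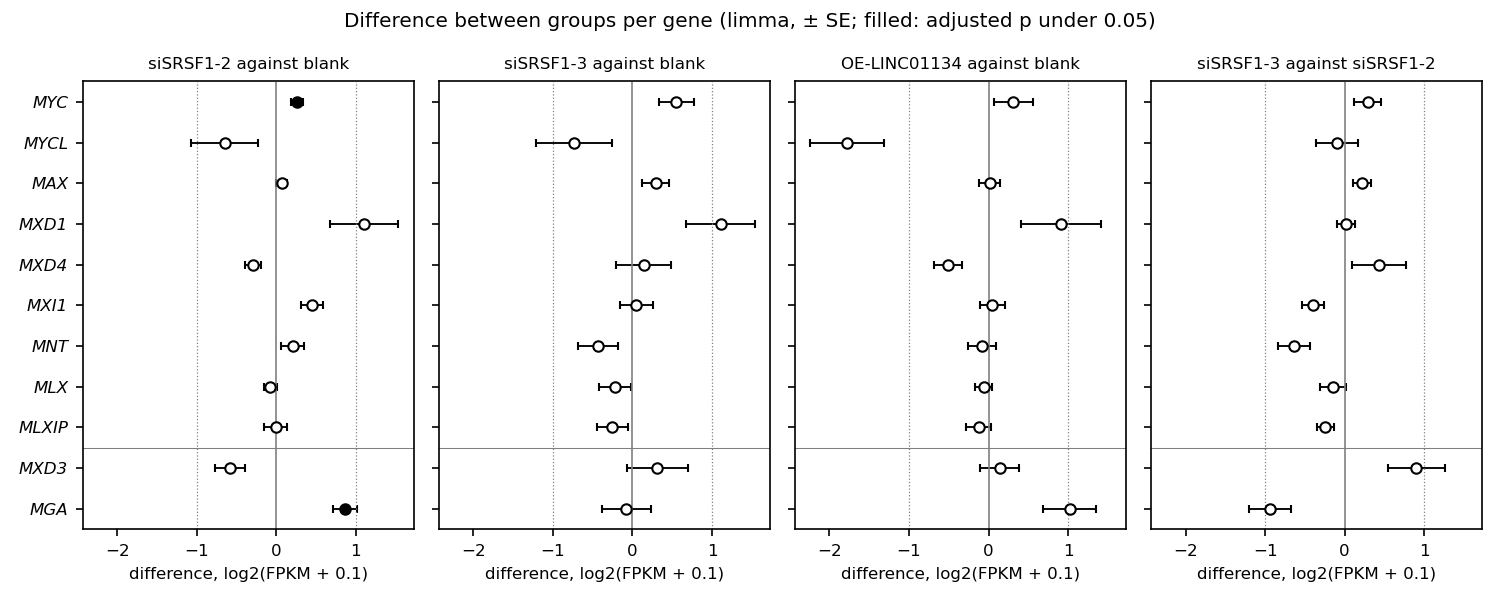
Log2 difference between groups (horizontal axes, log2 of FPKM + 0.1) for the 9 tested members and, below the line, MXD3 and MGA; points are limma estimates from 3 libraries per group, bars the SE, filled points have an adjusted p under 0.05, and dotted lines mark a log2 difference of 1. The filled points are MYC (0.26) and MGA (0.86) with siSRSF1-2 against blank, both inside the dotted lines.

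The balance between the activator and its competitors was described within each library as the log2 of MYC FPKM over the summed FPKM of MXD1, MXD4, MXI1 and MNT, a ratio that library scaling leaves unchanged. It was 1.99, 1.72 and 1.66 in the blank libraries, 1.64, 1.58 and 1.59 with siSRSF1-2, 1.70, 2.25 and 2.10 with siSRSF1-3, and 2.09, 1.54 and 2.15 with LINC01134 overexpression. The siSRSF1-2 libraries lay below all blanks and below all siSRSF1-3 libraries, and the other groups overlapped the blanks. Mean balances were 1.79 ± 0.17 (SD, n = 3) in blank cells, 1.603 ± 0.029 with siSRSF1-2, 2.02 ± 0.28 with siSRSF1-3 and 1.93 ± 0.33 with LINC01134 overexpression. No test was made of this score, because it is built from the members.

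The repressor pool itself differed in size and make-up. The 4 repressors summed to 20.7, 28.8 and 29.2 FPKM in blank cells, 34.7 to 35.7 FPKM with siSRSF1-2, 30.9 to 33.1 FPKM with siSRSF1-3 and 25.3 to 31.8 FPKM with LINC01134 overexpression. Every siRNA library was above every blank in this sum of deposited FPKM, which, unlike the ratio, depends on the scaling. Scaled to own reads the sums were 20.5, 31.2 and 31.3 in the blanks, 37.5 to 38.5 with siSRSF1-2 and 23.5, 27.4 and 35.2 with siSRSF1-3, so that the siSRSF1-3 libraries then overlapped the blanks. MXD1 supplied 12.3%, 26.5% and 27.1% of it in the blanks, 32.5% to 33.1% with siSRSF1-2, and 34.3% to 38.4% with siSRSF1-3. MXI1 held 43.3% ± 0.8 (SD, n = 3) in blank cells and 43.5% ± 0.8 with siSRSF1-2, against 36.1% ± 5.1 with siSRSF1-3. MAX, for which all of them compete, was 0.547 to 0.585 of the repressor sum with siSRSF1-2, below the 0.645 to 0.867 of the blank libraries.

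**Figure D3:**
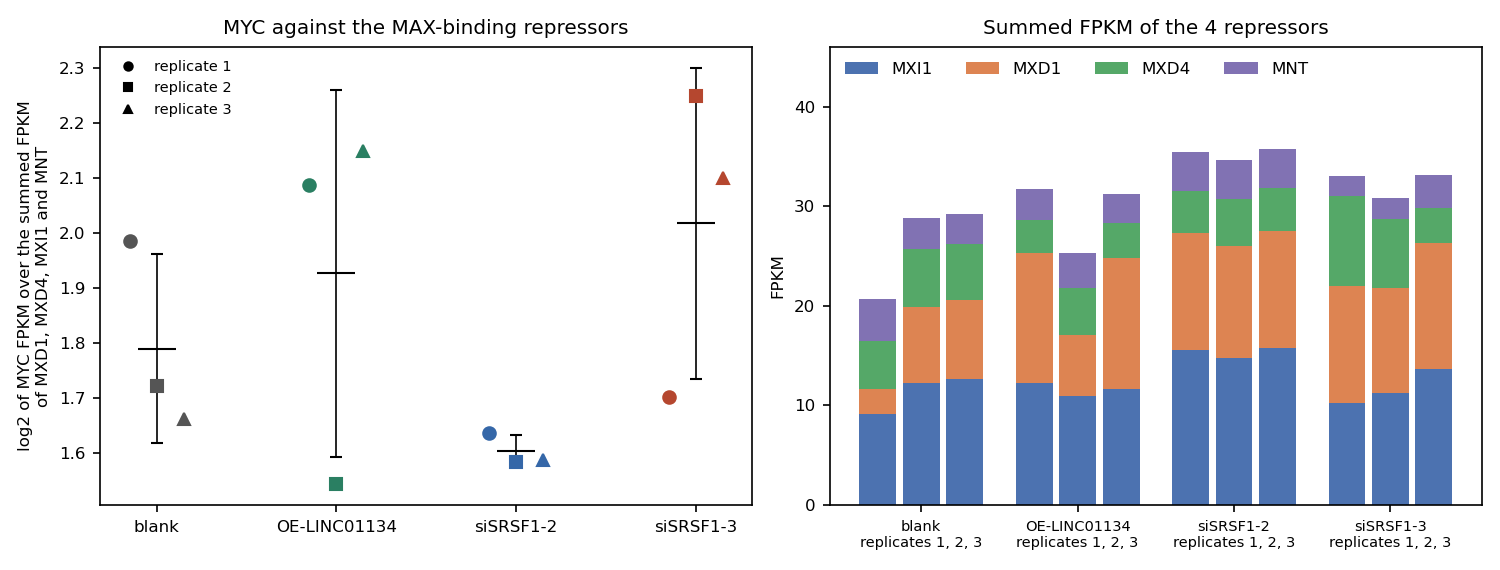
Left, log2 of MYC FPKM over the summed FPKM of MXD1, MXD4, MXI1 and MNT in each library (symbols by replicate number) with the group mean and SD; the vertical axis does not start at 0, and siSRSF1-2 lies between 1.58 and 1.64. Right, the summed FPKM of the 4 repressors per library, divided by gene, with blank replicate 1 lowest at 20.7 FPKM.

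Members that varied together over the libraries are given as a description over 12 libraries that share groups and scaling. Pearson's r of log2(FPKM + 0.1) was 0.80 for MNT with MLXIP, 0.74 for MYC with MAX and 0.74 for MYC with MXD1, and it was -0.73 for MAX with MNT. Among all tested genes outside the lists, the levels most like MYC were those of ARVCF (r = 0.96), a catenin of cell junctions, TRAFD1 (r = 0.95) and PCID2 (r = 0.94). Those most like MAX were FADS3 (r = 0.96), RABGEF1 (r = 0.95), an exchange factor for a Rab GTPase, and MPC1 (r = 0.94), a subunit of the mitochondrial pyruvate carrier.

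Of the other network genes, MGA, a large MAX partner that represses germ cell genes through a variant polycomb complex, was at 4.21, 2.97 and 2.93 FPKM in blank cells and 6.02, 6.03 and 6.30 FPKM with siSRSF1-2. Each siSRSF1-2 library was above each blank. The log2 difference was 0.86 ± 0.15 (SE, n = 3 per group, limma adjusted p = 0.011), which passed the adjusted p and not the minimum fold, and without blank replicate 1 it was 1.03 ± 0.05 and passed both (limma adjusted p = 8.8e-05). MGA was at 8.89, 4.03 and 8.95 FPKM with LINC01134 overexpression, where replicate 2 lay among the blanks, and the difference was 1.02 ± 0.33 (limma adjusted p = 0.12). Without OE-LINC01134 replicate 2 it was 1.40 ± 0.18 and passed the full threshold (limma adjusted p = 0.011), while without blank replicate 1 it was 1.19 ± 0.38 and did not (limma adjusted p = 0.098). With siSRSF1-3 it was at 2.49, 2.57 and 4.84 FPKM, a difference from blank of -0.08 ± 0.31 (limma adjusted p = 0.88). MXD3, a repressor tied to proliferation, was at 6.27, 3.77 and 4.35 FPKM in blank cells, 3.24, 2.93 and 3.11 FPKM with siSRSF1-2, and 8.49, 7.19 and 3.27 FPKM with siSRSF1-3. Only the siSRSF1-2 libraries were all below the blanks, by -0.59 ± 0.19 (SE, n = 3 per group, limma adjusted p = 0.066). Without blank replicate 1 that difference was -0.38 ± 0.08 (limma adjusted p = 0.013). Between the siRNAs MGA differed by -0.94 ± 0.27 (limma adjusted p = 0.082) and MXD3 by 0.90 ± 0.35 (limma adjusted p = 0.11). Without siSRSF1-3 replicate 3 these were -1.24 (limma adjusted p = 0.0014) and 1.31 (limma adjusted p = 0.0015), past the full threshold. In that fit 2807 of all 17538 genes rose past it and 2551 fell. MLXIPL (ChREBP), the liver counterpart of MLXIP, did not exceed 0.18 FPKM and was not tested.

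The following lists hold 17 MYC coactivators, 13 genes of transcriptional repression (called corepressors here), 17 regulators of MYC protein stability and 15 genes tied to MYC transcription. They also hold 48 genes known to be raised by MYC, 17 known to be lowered by it and 9 driven by MLXIP with MLX. They are described by counts and medians, beside those of all genes tested, whose median log2 difference was 0.02 with siSRSF1-2, -0.01 with siSRSF1-3, 0.05 with LINC01134 overexpression and -0.02 between the siRNAs. PKM and HK2 stand in both the MYC-raised and the MLXIP list. The corepressors include ZBTB17 and DNMT3A, which are not specific to the MXD proteins and MNT.

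With siSRSF1-2, the genes that MYC is known to raise were lower in most of the cases that passed the test, beside the higher MYC given above. Of 47 tested, 5 fell past the full threshold and 0 rose, beside 2.73% of all genes tested that fell and 2.22% that rose. At the adjusted p alone 12 were lower and 1 higher, beside 12.8% and 14% of all genes, and the median was -0.23. These counts turned on blank replicate 1. Without it, 1 of 47 fell past the full threshold and 0 rose, beside 656 and 532 of all genes. At the adjusted p alone, 23 were then lower and 12 higher, beside 9147 of all 17538 genes in either direction. LDHA, the lactate dehydrogenase subunit of glycolysis, was at 180 ± 32 FPKM (SD, n = 3) in blank cells and 42.99 ± 1.003 FPKM with siSRSF1-2, and fell by 2.05 on the log2 scale (limma adjusted p = 9.2e-04). NCL, the nucleolar protein nucleolin, fell from 113 ± 32 to 50.2 ± 0.9 FPKM, and CDC25A, a phosphatase of cell cycle entry, from 9.28 ± 1.68 to 4.50 ± 0.07 FPKM. NME1, a nucleoside diphosphate kinase, and HSPE1, a mitochondrial chaperonin, were the others, named after their values were seen. LDHA kept its call in 17 of 18 alternatives, NCL in 16, CDC25A in 13, NME1 in 11 and HSPE1 in 7. None of these calls was kept with near-identical libraries averaged, a setting that leaves fewer libraries and calls 0 of all genes here. Without blank replicate 1, NCL (-0.92), CDC25A (-0.87), NME1 (-0.90) and HSPE1 (-0.75) lay inside the minimum fold, as did NME1 without siSRSF1-2 replicate 2 (-0.98), and HSPE1 also lost its call without blank replicate 3 or any siSRSF1-2 library, with limma adjusted p up to 0.14. SLC1A5, the glutamine transporter, was lower by -0.93 ± 0.06 (SE, n = 3 per group, limma adjusted p = 9.5e-04), short of the minimum fold, and so was ENO1, the glycolytic enolase, by -0.47 ± 0.06 (limma adjusted p = 0.0037).

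With siSRSF1-3, 1 of the 47 MYC-raised genes fell past the threshold and 0 rose, beside 0.929% of all genes that fell, with a median of -0.02. Without siSRSF1-3 replicate 3 it was 6 that fell and 3 that rose, beside 1992 and 2192 of all genes, and without blank replicate 1 it was 0. It was LDHA, at 64.4 ± 6.5 FPKM (SD, n = 3), which fell by 1.47 on the log2 scale (limma adjusted p = 0.045) and kept its call in 8 of 18 alternatives and in 1 of 6 fits that left out a library, the fit without siSRSF1-3 replicate 3. In the others the limma adjusted p reached 0.22. TFRC, the transferrin receptor, was lower by -1.18 ± 0.24 (SE, n = 3 per group, limma adjusted p = 0.057) and MCM4, a subunit of the replicative helicase, by -1.56 ± 0.34 (limma adjusted p = 0.066), and neither passed, while both did without siSRSF1-3 replicate 3 (limma adjusted p = 0.013 and 0.033). With LINC01134 overexpression 0 of 47 passed in either direction, with a median of 0.02 and SLC1A5 highest in rank at 0.44 ± 0.09 (limma adjusted p = 0.065). Between siSRSF1-3 and siSRSF1-2, 0 of 47 passed and the median was 0.19, with NCL at 1.04 ± 0.11 (limma adjusted p = 0.051) and SLC1A5 at 1.41 ± 0.18 (limma adjusted p = 0.052) foremost. Without siSRSF1-3 replicate 3, 11 rose and 3 fell, NCL and SLC1A5 among those that rose, beside 2807 and 2551 of all genes.

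Of 15 tested genes that MYC is known to lower, 1 fell past the threshold with siSRSF1-2, 2 with siSRSF1-3, 1 with LINC01134 overexpression and 0 between the siRNAs, and none of the 15 rose past it in these comparisons. All genes that fell past it were 2.73%, 0.929% and 0.593% in the comparisons with blank and 15 genes passed in either direction between the siRNAs, so single calls in a list of 15 are too few to set against these shares. Without OE-LINC01134 replicate 2, 5 fell and 1 rose with LINC01134 overexpression, beside 1029 and 511 of all 17538 genes. Without siSRSF1-3 replicate 3, 3 fell and 1 rose with siSRSF1-3, beside 1992 and 2192 of all genes. Without blank replicate 1, 2 fell with siSRSF1-2 (656 of all genes), 2 with siSRSF1-3 (28) and 2 with LINC01134 overexpression (645). CCND1, cyclin D1, was at 33.3 ± 6.2 FPKM (SD, n = 3) in blank cells, 11.2 ± 0.5 FPKM with siSRSF1-2 and 5.93 ± 0.72 FPKM with siSRSF1-3. It fell by 1.55 on the log2 scale (limma adjusted p = 0.0017) and by 2.46 (limma adjusted p = 0.018), and it was at 11.5 ± 5.3 FPKM with LINC01134 overexpression, where -1.600 ± 0.305 (SE) did not pass (limma adjusted p = 0.060). CDKN2B, the p15 inhibitor of cyclin D kinases, was at 2.76 ± 0.64 FPKM in blank cells, 0.674 ± 0.150 FPKM with siSRSF1-3 and 0.149 ± 0.184 FPKM with LINC01134 overexpression. It fell by 1.88 (limma adjusted p = 0.045) and by 3.73 (limma adjusted p = 0.040) on the log2 scale. An OE-LINC01134 library held as few as 4 reads of it, so the size of the latter depended on the method, at -1.71 with a pseudocount of 1, -4.76 with 0.01 and -4.96 with voom. CCND1 kept its siSRSF1-2 call in 17 of 18 alternatives and its siSRSF1-3 call in 12. CDKN2B kept its calls in 7 of 18 with siSRSF1-3 and 10 of 18 with LINC01134 overexpression. Averaging near-identical libraries, which leaves fewer libraries, kept none of these calls. Each CDKN2B call was lost without blank replicate 2 and without blank replicate 3, with limma adjusted p up to 0.22. The siSRSF1-3 call was also lost without blank replicate 1 and siSRSF1-3 replicates 1 and 2, each left out in turn, and the LINC01134 call without OE-LINC01134 replicates 1 and 3. The siSRSF1-3 call of CCND1 was lost without blank replicates 2 and 3 and siSRSF1-3 replicate 2, each left out in turn, with limma adjusted p up to 0.20. The list's medians were 0.08 with siSRSF1-2, -0.08 with siSRSF1-3, -0.51 with LINC01134 overexpression and 0.16 between the siRNAs. At the adjusted p alone, 4 of the 15 were lower and 1 higher with siSRSF1-2, beside 12.8% and 14% of all genes.

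The MLXIP and MLX list centred on TXNIP and ARRDC4, arrestins that restrain glucose uptake. TXNIP was at 4.11 to 19.6 FPKM in blank cells, 8.74 to 9.60 FPKM with siSRSF1-2, 2.98 to 4.66 FPKM with siSRSF1-3 and 10.1 to 12.7 FPKM with LINC01134 overexpression. The siSRSF1-3 libraries were all below the siSRSF1-2 libraries and overlapped the lowest blank. The log2 difference of TXNIP from blank was -1.61 ± 0.58 (SE, n = 3 per group, limma adjusted p = 0.14) with siSRSF1-3, -2.33 ± 0.23 without blank replicate 1 (limma adjusted p = 0.055) and -1.79 ± 0.69 without siSRSF1-3 replicate 3 (limma adjusted p = 0.093). With siSRSF1-2 the TXNIP difference was -0.31 ± 0.58 and did not pass (limma adjusted p = 0.73). Only near-identical libraries remain in each group without blank replicate 1, where it was -1.02 ± 0.06 and passed the full threshold (limma adjusted p = 1.5e-04). Between the siRNAs the difference was -1.30 ± 0.18 (limma adjusted p = 0.058), and without siSRSF1-3 replicate 3 it was -1.48 ± 0.10 and passed (limma adjusted p = 0.0014). ARRDC4 differed between the siRNAs by -0.94 ± 0.16 (limma adjusted p = 0.071). With siSRSF1-3, 9 of the 9 genes were lower than in blank cells, beside 8885 of all 17538 genes, and 0 passed, with a median of -0.38. With siSRSF1-2, 0 of 9 passed the full threshold, 2 were lower at the adjusted p alone, PKM and TKT, beside 12.8% of all genes, and the median was -0.15. ARRDC3, a relative of TXNIP, rose with LINC01134 overexpression from 5.10 ± 0.41 to 10.6 ± 1.4 FPKM (SD, n = 3), by 1.03 ± 0.14 on the log2 scale (limma adjusted p = 0.039). It was the only 1 of 9 to pass there, beside 0.257% of all genes that rose, kept its call in 7 of 18 alternatives and, of the fits that left out a library, only without blank replicate 1 (limma adjusted p up to 0.20 in the others), and the list's median was -0.05. Between the siRNAs 0 of 9 passed, with a median of -0.58.

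In the main limma fits of the 4 comparisons, no coactivator, corepressor, stability regulator or gene tied to MYC transcription passed the full threshold. At the adjusted p alone, which 14% of all genes passed as higher and 12.8% as lower, 4 of 17 coactivators were higher and 2 lower with siSRSF1-2, with a median of -0.03. Among them EP400, an ATPase of the TIP60 complex, was higher by 0.61 ± 0.09 (SE, n = 3 per group, limma adjusted p = 0.0064) and EP300, an acetyltransferase, by 0.73 ± 0.13 (limma adjusted p = 0.010). Of 13 corepressors, 3 were higher and 0 lower at that rule, with a median of 0.08, and SUDS3, a subunit of the SIN3 deacetylase complex that MXD proteins recruit, was higher by 0.60 ± 0.07 (limma adjusted p = 0.0037). DNMT3A, a DNA methyltransferase, was higher by 0.99 ± 0.20 (limma adjusted p = 0.016). With each library scaled to its own reads its difference was 1.03 and passed the full threshold (limma adjusted p = 0.021). Of 17 stability regulators, 7 were higher and 3 lower, with a median of 0.03. USP36, a deubiquitinase of MYC in the nucleolus, was higher by 0.58 ± 0.06 (limma adjusted p = 0.0023) and PIM1, a kinase that stabilises MYC, was lower by -0.83 ± 0.07 (limma adjusted p = 0.0018). Of 15 genes tied to MYC transcription, 1 was higher and 1 lower, with a median of 0.03, and the lower was E2F1, at -0.72 ± 0.16 (limma adjusted p = 0.021). With so few genes a list these counts are a description and show nothing particular to the lists.

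With siSRSF1-3, 0 genes of these lists passed the adjusted p against blank, with medians of -0.07 for coactivators, -0.09 for corepressors, -0.26 for stability regulators and -0.25 for genes tied to MYC transcription. PVT1, the noncoding RNA neighbour of MYC, was at 9.73 to 12.3 FPKM in blank cells and at 16.3 to 42.2 FPKM with siSRSF1-3, and all 3 libraries lay above the blanks. Its log2 difference was 1.13 ± 0.35 (SE, n = 3 per group, limma adjusted p = 0.11), and without siSRSF1-3 replicate 3 it was 1.43 ± 0.31 and passed (limma adjusted p = 0.022). With LINC01134 overexpression PIM1 was lower by -0.79 ± 0.13 (limma adjusted p = 0.049), and no other gene of these lists passed the adjusted p. The medians there were 0.34 for coactivators, 0.20 for corepressors, 0.33 for stability regulators and 0.11 for genes tied to MYC transcription, beside 0.05 for all genes tested. TRRAP, the scaffold that MYC binds to recruit acetyltransferases, was at 6.60 ± 2.93 FPKM (SD, n = 3) in blank cells and 16.2 ± 3.5 FPKM with LINC01134 overexpression, a log2 difference of 1.35 ± 0.31 (SE, limma adjusted p = 0.076). It passed without blank replicate 1 (1.69, limma adjusted p = 0.014) and without OE-LINC01134 replicate 2 (1.54, limma adjusted p = 0.032). TRRAP was also higher with siSRSF1-2, and passed without blank replicate 1 (1.29, limma adjusted p = 3.5e-05). Scaled to own reads, that siSRSF1-2 difference was 0.9997 (limma adjusted p = 0.030), short of the minimum fold. With siSRSF1-3 it was 0.07 without blank replicate 1 (limma adjusted p = 0.93). Between the siRNAs 0 genes of the lists passed, with medians of -0.18 for coactivators, -0.27 for corepressors, -0.19 for stability regulators and -0.23 for genes tied to MYC transcription. Without siSRSF1-3 replicate 3, 5 coactivators, 3 corepressors, 1 stability regulator and 1 gene tied to MYC transcription fell past the full threshold there, and 1, 1, 1 and 2 rose. Of all 17538 genes, 2551 fell and 2807 rose in that fit. In bulk RNA, a lower level in every cell and fewer cells with the gene cannot be told apart.

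**Figure D4:**
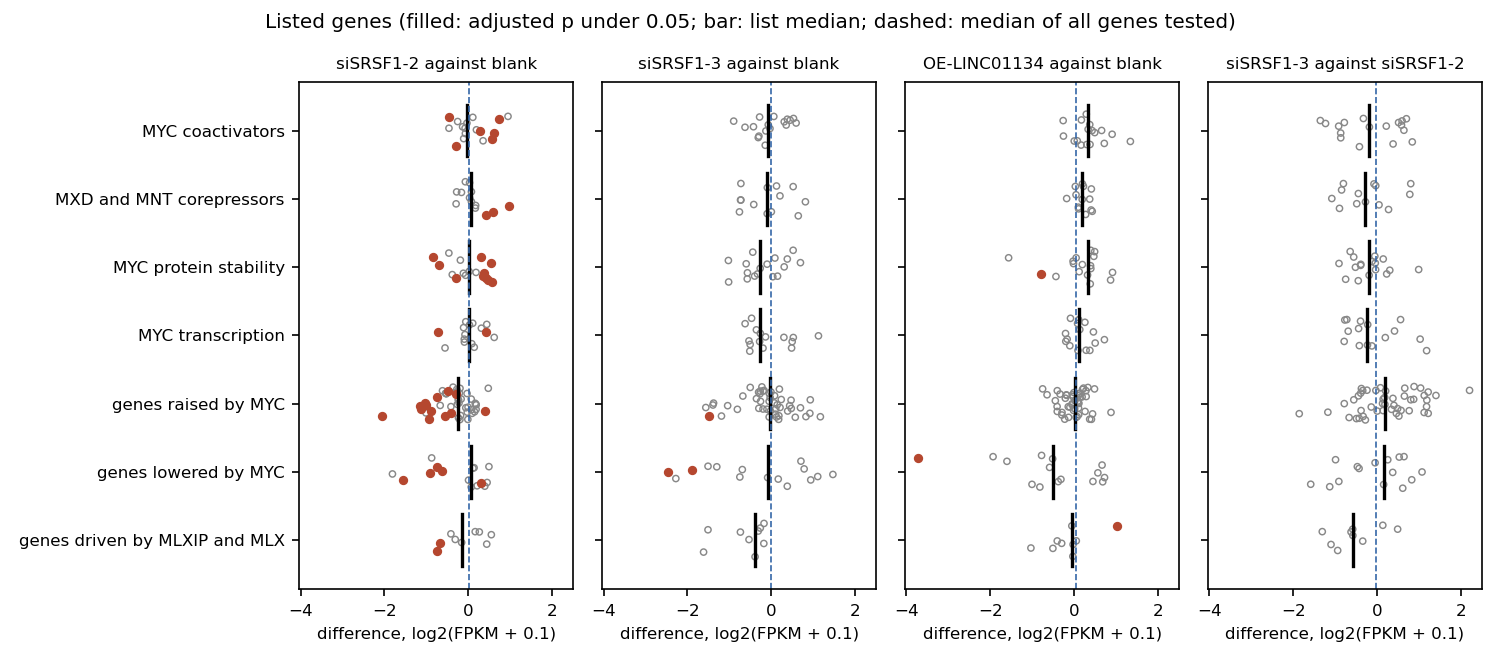
Log2 difference (horizontal axes, log2 of FPKM + 0.1) of each tested gene of the 7 lists in the 4 comparisons; filled points have a limma adjusted p under 0.05, black bars are list medians and the dashed line is the median of all genes tested. With siSRSF1-2 the filled points of the MYC-raised list lie below 0 apart from 1, and with siSRSF1-3 all 9 genes of the MLXIP and MLX list lie below 0.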

How the data were processed

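The authors deposited 1 table of FPKM per gene and library, with gene lengths. Per the study's methods they selected mRNA with poly-T beads, sequenced paired ends and used DESeq2, while the aligner, counter and human build are not given in the sources used here; the submitters' processing notes name GRCm38 and mm10. Reads per gene were recovered from FPKM and gene length, since 100% of values came out within 0.1 of a whole read. FPKM were scaled between libraries by the authors, which can move small differences.

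The log2(FPKM + 0.1) values entered lmFit and trended eBayes of limma 3.58.1 (R 4.3.3) for the 17538 genes with a mean of at least 0.5 FPKM, with the 3 + 3 libraries of each comparison and Benjamini-Hochberg adjustment over all of them. The threshold was an adjusted p under 0.05 with an absolute log2 difference over 1. The fit was tested on simulated data. With 3 against 3 libraries an exact permutation test cannot go below 0.1, so none is printed. Groups came from the sample titles, 0 columns were left unused, and all 166 symbols were matched by full name.

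The members and lists were chosen with earlier results of these data known. Named genes were the members, MXD3, MGA and MLXIPL, SRSF1 and LINC01134, TXNIP and ARRDC4, and the 3 genes most correlated with MYC and with MAX. Others were taken from the 3 genes per list and comparison with the smallest adjusted p, not all of which are named. NME1 and HSPE1 were added later. Alternatives covered the pseudocount, the filter, the scaling, the eBayes trend, a fit over all groups, a replicate block and leaving out each library. Scaling to each library's own reads, voom on recovered reads and averaging of near-identical libraries were added after seeing the data, as were the alternatives for listed genes and the fits without libraries that stand apart. 1 marker gene is not reported here.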

Additional observations from a re-analysis of the deposited data

Results flagged for a closer look

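MNT was singled out because the siRNAs placed it on opposite sides of the blank mean in every library. Relative to the mean log2(FPKM + 0.1) of the blank cells, the siSRSF1-2 libraries were at 0.20 to 0.21 and the siSRSF1-3 libraries at -0.68 to -0.02. The difference of siSRSF1-3 from siSRSF1-2 was -0.64, and in limma it did not pass the threshold (adjusted p = 0.087, n = 3 per group). Blank replicate 1 (4.22 FPKM) was above every siSRSF1-2 library, and the other blanks (3.07 and 2.96 FPKM) were below siSRSF1-3 replicate 3 (3.32 FPKM).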

How the results depend on the processing

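The count of members past the threshold was 0 in each comparison. Leaving out 1 library at a time gave 0 to 1 with siSRSF1-2 and with OE-LINC01134 (in both, MYCL without blank replicate 1) and 0 in the other comparisons. MYCL lies near the filter and is highest in the blanks, so the filter favours that direction. OE-LINC01134 also gave 1 in the fit over all 4 groups, and siSRSF1-2 gave 1 with no minimum fold (MYC). A rule of unadjusted p under 0.05 with the minimum fold gave 1 each with siSRSF1-2, siSRSF1-3 and OE-LINC01134. The differences between groups in the balance of MYC over the repressors moved by less than 1 SD in each alternative, while its level in blank cells went from 1.79 to 0.773 on reads and 1.38 with MXD3 and MGA. The replicate numbers do not pair the libraries, since no same-numbered pair of deviations correlated above 0.042, and with the replicate block 0 members passed in each comparison while calls over all genes went from 389 up and 479 down to 300 up and 381 down with siSRSF1-2, from 221 to 0 with siSRSF1-3, from 149 to 4 with OE-LINC01134 and from 15 to 0 between the siRNAs. Calls over all genes between the siRNAs were 2807 up and 2551 down without siSRSF1-3 replicate 3, and 0 with near-identical libraries averaged, a setting that leaves fewer libraries. Signs of small member differences turned as follows, and the cause was not tested. Given equal FPKM sums, MLX (0.055) and MLXIP (0.12) turned with siSRSF1-2, MAX (-0.15), MXD4 (-0.30) and MXI1 (-0.39) with siSRSF1-3, MNT (0.0056) and MLX (0.030) with OE-LINC01134, and MYC (-0.29), MAX (-0.36), MXD1 (-0.56) and MXD4 (-0.14) between the siRNAs. Scaled to own reads, MLXIP (0.036) turned with siSRSF1-2, MXD4 (-0.11) and MXI1 (-0.21) with siSRSF1-3, and MYC (-0.015), MAX (-0.084) and MXD1 (-0.29) between the siRNAs. With OE-LINC01134, voom turned MAX (-0.037) and MXI1 (-0.0021), and averaging near-identical libraries turned MAX (-0.032); voom also turned MXD1 (-0.0098) between the siRNAs. With 1 library left out, MLXIP ranged from -0.092 to 0.14 with siSRSF1-2, MXD4 from -0.15 to 0.53 and MXI1 from -0.10 to 0.14 with siSRSF1-3. With OE-LINC01134 the ranges were -0.064 to 0.14 for MAX, -0.10 to 0.13 for MXI1, -0.17 to 0.076 for MNT and -0.21 to 0.024 for MLXIP. Between the siRNAs they were -0.20 to 0.036 for MYCL, -0.052 to 0.080 for MXD1 and -0.24 to 0.014 for MLX. MYCL and MYCN rest on few reads, which limits their precision, and reads are not independent molecules.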
